A study of Mus musculus with 12 samples.

Results

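The 4 arrays analysed here set PD1-intermediate T helper (Th) cells against PD1-low Th cells from the lymph nodes of immunized mice, 2 arrays in each group, out of 12 arrays in the series. The arrays were chosen by their sample titles. PD1-intermediate Th cells had been sorted as CD4+ CXCR5+ cells with intermediate PD1 and high CD44, and PD1-low Th cells as CD4+ cells with low CXCR5, low PD1 and high CD44, both without the markers of an exclusion stain. The lymph node cells came from S1pr2V/+ mice, which carry the Venus fluorescent reporter at 1 allele of S1pr2, 10 days after a subcutaneous injection of CGG in CFA. All 5 groups share this allele and this immunization. Each PD1-intermediate array held cells pooled from 4 mice. PD1-low replicate 1 was a pool of 6 mice and replicate 2 of 4. The other arrays were Venus-high Tfh cells (3 arrays) and Venus-low Tfh cells (3 arrays), both CXCR5+ and PD1-high, and naive CD4+ T cells (2 arrays) with low CD44 and high CD62L, from spleens of 2 S1pr2V/+ mice per array that had had the same injection 10 days before. They entered the same fit, which then had 7 residual degrees of freedom. The labels do not say that the pools of a group came from separate immunizations, so the p-values measure the spread between pools. That spread is taken over all 5 groups, so differences among the Tfh or naive arrays of a group enter it too.

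PD1 is an inhibitory receptor that T cells put on their surface after activation, and CXCR5 is the chemokine receptor that draws cells into B cell follicles. Activated CD4+ T cells that raise both can become follicular helper T (Tfh) cells, which give B cells interleukin 21, interleukin 4 and CD40 ligand. CXCR5+ cells with less PD1 have been described as early helpers or helpers outside germinal centres, and a CXCR5-low, CD44-high gate takes in effector and memory Th cells of other kinds.

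Each level below is a deposited log2 signal of 1 probe set on 1 array, replicate 1 before replicate 2. A difference is PD1-intermediate minus PD1-low, in log2 units, with its standard error (SE). Signals under log2 5 were read as a bound: if a group lay under 5 on both arrays, the fold is given as at least the other group's mean over that floor. Adjusted p-values are those of limma over 9893 genes, and a gene is said to have risen or fallen only where this was under 0.05. In samples of sorted cells, fewer cells that express a gene and less of its RNA per cell cannot be told apart. The T cell genes Cd3e, Cd3d, Cd3g and Cd4, taken as the highest probe set of a gene on each array, read between 13.61 and 15.10 on all 4 arrays.

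The arrays fell into 3 sets by their quantiles, which the labels do not name. Both PD1-intermediate arrays and PD1-low replicate 2 were in set 3, with upper quartiles of 9.39 to 9.42 over the arrays of the set, and PD1-low replicate 1 was in set 2, with 8.68 to 8.76. Replicates correlated by 0.998 over probe sets for the PD1-intermediate pair and by 0.863 for the PD1-low pair. In set 2, 3315 probe sets were displaced from their values in both other sets by over 3 log2 units, and such probe sets stood for 507 of the genes tested. None of the called genes, and none of the genes given here with a difference or a p-value, were among them. For some genes and lists the difference from PD1-low replicate 2 alone is given as the difference within set 3. Genes given without it can depend on set 2 too.

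The transcripts of the sort followed it. Cxcr5 read 13.92 and 13.58 in PD1-intermediate Th, against 5.18 and 6.75 in PD1-low Th, and rose by 7.79 ± 0.47 (adjusted p = 3.79e-05). Pdcd1, which encodes PD1, read 13.17 and 12.59, against 6.83 and 7.35 in PD1-low Th, and rose by 5.79 ± 0.56 (adjusted p = 7.18e-04). Neither gene's arrays overlapped between the groups. Both genes are properties of the gate and no finding. Cd44, for which both gates took high cells, differed by 1.63 ± 0.72 (adjusted p = 0.407) and passed with the quantile set as a term (1.27 ± 0.18, adjusted p = 0.00541). Cd4 differed by 0.50 ± 0.38 (adjusted p = 0.798).

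The 3 genes chosen to mark this comparison were Il21, Il1r2 and Igfbp4. Il21, the cytokine that Tfh cells supply to B cells, read 11.59 and 11.09 in PD1-intermediate Th, against 2.39 and 2.68 in PD1-low Th. Il1r2, a decoy receptor that binds interleukin 1 without signalling, read 11.63 and 11.24 in PD1-intermediate Th, against 2.12 and 3.13 in PD1-low Th. Both genes were under the floor in PD1-low Th and rose at least 80.9-fold (adjusted p = 2.25e-04) and at least 86.7-fold (adjusted p = 3.13e-05). Igfbp4, a binding protein of insulin-like growth factors that resting T cells express, read 4.08 and 6.71 in PD1-intermediate Th, against 13.76 and 13.83 in PD1-low Th. It fell by 8.40 ± 1.08 (adjusted p = 0.00303), and 1 of the 2 PD1-intermediate arrays was under the floor. All 3 calls held when any 1 of the 4 arrays was left out.

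Over all genes, 397 of 9893 passed the test (4.01%, and 4.23% of the genes whose probe set was not displaced), 304 higher (3.07%) and 93 lower (0.940%) in PD1-intermediate Th. The groups' arrays did not overlap in 53.1% of the genes tested, so lack of overlap was common among genes that did not pass. The median difference of all genes was 0.29, and it was 0.01 within set 3, so a difference of about that size is the shift of the whole array. The 397 called genes differed in the called direction within set 3, and 300 of the 304 rises and 93 of the 93 falls were at least 1 log2 unit there. This reuses both PD1-intermediate arrays and PD1-low replicate 2, which helped to choose the genes, and is given as a description. With the set as a term in the fit, 1266 genes passed, 800 higher (8.09%) and 466 lower (4.71%), and the 397 were all among them with the same sign. The count was 137 without PD1-intermediate replicate 1, 177 without PD1-intermediate replicate 2, 180 without PD1-low replicate 1 and 385 without PD1-low replicate 2.

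**Figure D1:**
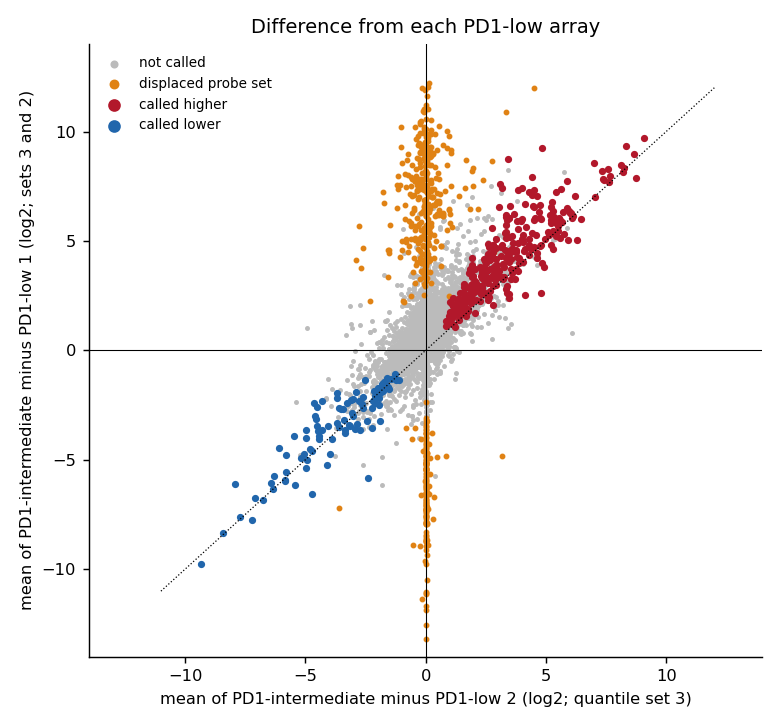
Each point is 1 of the 9893 genes tested, with the mean of the 2 PD1-intermediate arrays minus PD1-low replicate 2 on the x axis and minus PD1-low replicate 1 on the y axis, both in log2 units, and the dotted line marks equal values. Called genes, 304 higher in red and 93 lower in blue, lie on the same side of 0 on both axes, and these same arrays entered the fit that called them. Many of the 507 genes with a displaced probe set, in orange, spread along the y axis near 0 on the x axis.

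Of the 12 largest rises, 11 were under the floor on both PD1-low arrays, Cxcr5 being the exception, with bounds of at least 39.2-fold to at least 125-fold. Nebl, which encodes nebulette, a protein that binds actin, had the largest difference on the deposited signals. It read 12.29 and 11.64 in PD1-intermediate Th, against 2.24 and 2.89 in PD1-low Th, a rise of at least 125-fold (adjusted p = 6.84e-04). Cebpa, a transcription factor best known from myeloid cells and liver, read 12.23 and 11.45, against 3.98 and 3.10 in PD1-low Th, at least 115-fold higher (adjusted p = 6.63e-04). Neither gene was above the floor on a PD1-low array.

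Trpm6, a magnesium channel with a kinase domain, read 10.84 and 10.47 in PD1-intermediate Th, against 2.19 and 2.52 in PD1-low Th (at least 50.3-fold, adjusted p = 1.31e-05). Smtn, which encodes smoothelin, a cytoskeletal protein of smooth muscle, read 10.54 and 10.18, against 2.20 and 2.15 in PD1-low Th (at least 41.0-fold, adjusted p = 2.81e-06). Asb2, the substrate subunit of a ubiquitin ligase, read 11.32 and 10.32, against 2.61 and 3.48 in PD1-low Th (at least 56.5-fold, adjusted p = 1.08e-04). All 3 genes were near the lowest signals of the array in PD1-low Th.

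The rises of this size also included genes of the cell surface and of glycosylation. H2-Q2, a class I histocompatibility gene, read 10.87 and 10.63 in PD1-intermediate Th, against 2.45 and 3.19 in PD1-low Th (at least 53.8-fold, adjusted p = 4.61e-05). Its family holds near-identical copies that probes may share. Cd163l1, a scavenger receptor known from gamma delta T cells, read 10.34 and 10.52, against 2.46 and 2.76 in PD1-low Th (at least 43.2-fold, adjusted p = 7.74e-04). B4galnt4, a glycosyltransferase, read 10.28 and 10.31, against 2.60 and 2.65 in PD1-low Th (at least 39.2-fold, adjusted p = 1.91e-05).

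**Figure D2:**
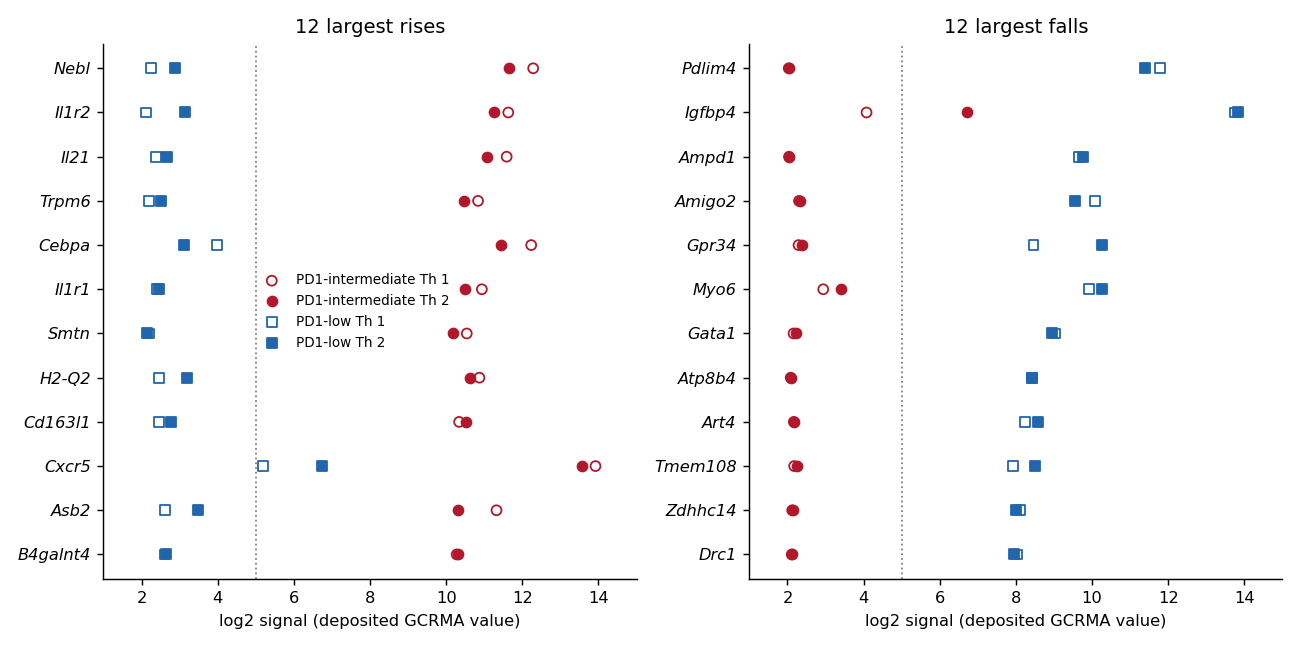
The log2 signal of each of the 4 arrays is drawn for the 12 largest rises (left) and the 12 largest falls (right), PD1-intermediate Th as red circles and PD1-low Th as blue squares, with replicate 1 open and replicate 2 filled. The dotted line is the floor of log2 5, and no gene's groups overlap.

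Among the 12 largest falls, 11 genes were under the floor on both PD1-intermediate arrays, Igfbp4 being the exception, with bounds of at least 7.96-fold to at least 96.0-fold lower. Pdlim4, an adaptor of the actin cytoskeleton, read 2.03 and 2.04 in PD1-intermediate Th, against 11.79 and 11.38 in PD1-low Th (at least 96.0-fold lower, adjusted p = 5.97e-07). Ampd1, an enzyme that deaminates AMP, read 2.04 and 2.05, against 9.65 and 9.77 in PD1-low Th (at least 26.2-fold lower, adjusted p = 4.54e-07). Amigo2, an adhesion molecule first described in neurons, read 2.30 and 2.34, against 10.07 and 9.56 in PD1-low Th (at least 28.1-fold lower, adjusted p = 8.70e-07). The PD1-intermediate signals of these genes were near the lowest of the arrays and have no order, and the groups did not overlap.

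Gpr34, a receptor of lysophosphatidylserine, read 2.29 and 2.38 in PD1-intermediate Th, against 8.46 and 10.25 in PD1-low Th (at least 20.5-fold lower, adjusted p = 2.09e-04). Myo6, an unconventional myosin, read 2.94 and 3.41, against 9.92 and 10.25 in PD1-low Th (at least 34.0-fold lower, adjusted p = 0.00224). Gata1, a transcription factor best known from red cell precursors, read 2.16 and 2.22, against 9.02 and 8.95 in PD1-low Th (at least 15.9-fold lower, adjusted p = 0.00106). The 5 erythroid and platelet markers on the array were under log2 5 on all 4 arrays.

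The falls of Art4, Tmem108, Zdhhc14 and Drc1 were at least 10.6-fold, 9.26-fold, 8.27-fold and 7.96-fold. Atp8b4, a phospholipid flippase, read 2.08 and 2.10 in PD1-intermediate Th and 8.42 on both arrays in PD1-low Th (at least 10.7-fold lower, adjusted p = 0.0130). Its SD was 0.0082 in PD1-intermediate Th and 0.0015 in PD1-low Th, against 2.18 in Venus-low Tfh, whose spread entered the SE. Its call was lost when any 1 of the 4 arrays was left out, with adjusted p between 0.0543 and 0.115. Among the 12 largest rises, the call of Il1r1, described below, was the one lost in any of these 4 fits.

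The naive arrays stand on neither side of the contrast but entered the shared fit, and leaving out either of them gave 368 calls, of which 343 were among the 397. They were closer to PD1-low than to PD1-intermediate Th in 303 of the 304 genes that rose and in 86 of the 93 that fell. For the genes that rose, the median level was 3.84 in naive cells and 174 genes were under log2 5 on both naive arrays. For the genes that fell, the median level was 7.70 in naive cells. The mean of Venus-low Tfh cells lay beyond that of PD1-low Th by over 1 log2 unit, in the called direction, in 291 of the 304 rises and in 88 of the 93 falls. The same counts in Venus-high Tfh cells were 284 and 87. These comparisons reuse the PD1-low arrays that chose the genes and are given as a description.

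**Figure D3:**
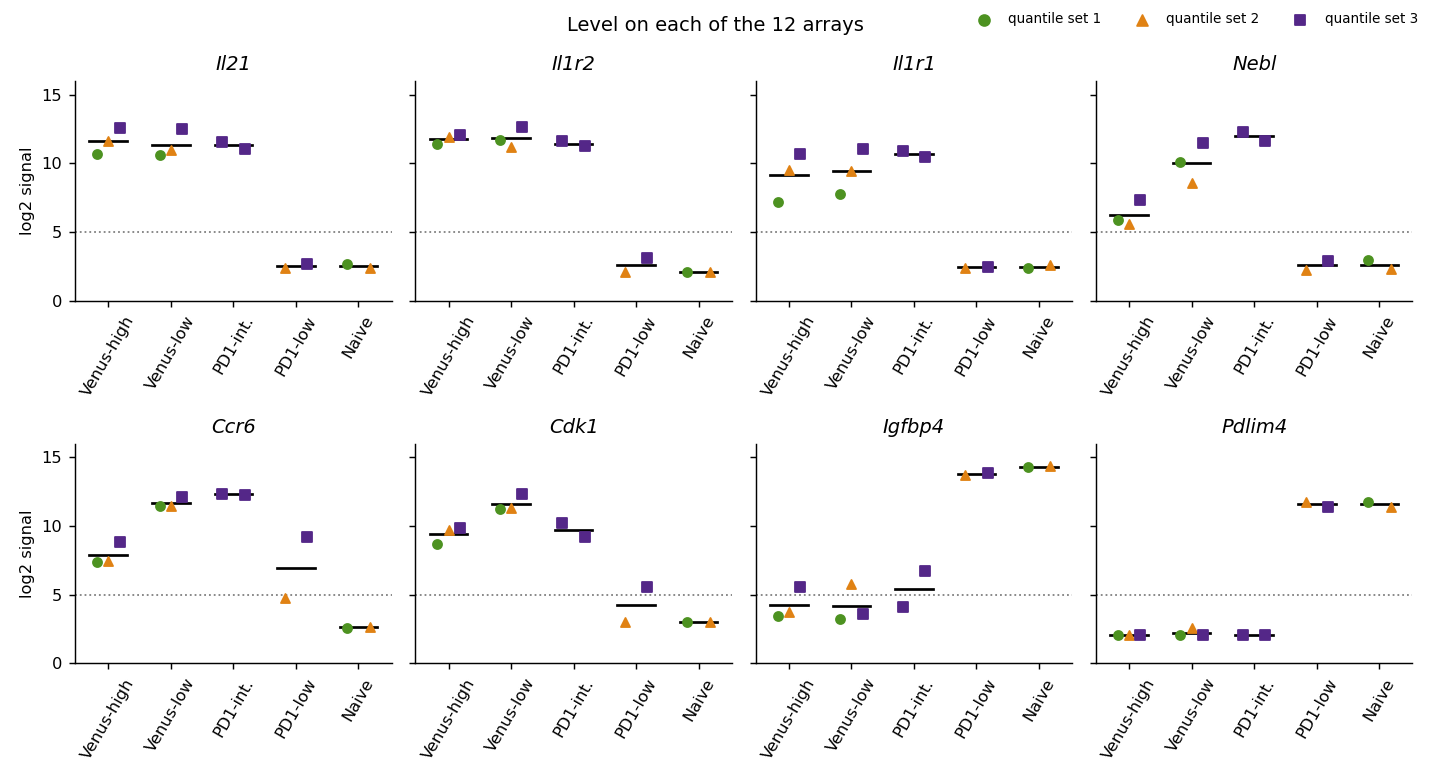
Log2 signal of 8 of the genes described here on each of the 12 arrays, by group, with the mean of each group as a bar and the quantile set of each array as its symbol. Il21, Il1r2 and Il1r1 read above 7 in both Tfh groups and in PD1-intermediate Th and under the dotted floor of log2 5 in PD1-low and naive cells, and Igfbp4 and Pdlim4 read above 11 in PD1-low and naive cells.

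Of the 30 measured genes of the Tfh programme, 9 rose and 0 fell in PD1-intermediate Th, and the list's median difference was 1.71, against 0.29 for all genes, and 1.01 within set 3, against 0.01. Over all genes 3.07% rose and 0.940% fell, and the list counts below are to be read beside these shares. Besides Il21, Lag3, an inhibitory receptor that binds class II molecules, read 10.47 and 10.01 in PD1-intermediate Th, against 3.21 and 5.59 in PD1-low Th, and rose by 5.84 ± 0.76 (adjusted p = 0.00318). Within set 3 the difference of Lag3 was 4.65. Il4, the cytokine that drives switching to IgG1 and IgE in mice, read 7.76 and 5.49, against 2.01 and 2.22 in PD1-low Th, at least 3.08-fold higher (adjusted p = 0.0160), but with signals under the floor set to log2 5 the adjusted p was 0.469. The 2 PD1-intermediate arrays thus differed by more than 2 log2 units in Il4. Maf, a transcription factor that promotes Il21 and Il4, read 14.15 and 14.11, against 9.89 and 12.21 in PD1-low Th, and rose by 3.08 ± 0.62 (adjusted p = 0.0274), and by 1.92 within set 3.

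The other genes of this list that rose were Pou2af1, S1pr2, Gpr183, Icos and Bcl6. The list sets no direction for its members, so a rise is not by itself a gain of Tfh traits. Icos, the costimulator that Tfh cells need, read 14.88 and 14.85 in PD1-intermediate Th, against 12.47 and 13.72 in PD1-low Th (1.77 ± 0.38, adjusted p = 0.0388). S1pr2, a receptor that holds cells in germinal centres, read 9.33 and 9.28, against 7.58 and 7.23 in PD1-low Th (1.90 ± 0.41, adjusted p = 0.0388). Gpr183, a receptor for oxysterols, read 13.03 and 12.84, against 10.60 and 11.57 in PD1-low Th (1.85 ± 0.33, adjusted p = 0.0154). No arrays overlapped between the Th groups. The mean of Gpr183 was 11.33 in Venus-high Tfh and 12.31 in Venus-low Tfh, against 11.36 in naive cells. A fit without 1 of the 4 arrays keeps 1 array in that group, so a lost call need not mean that the difference moved. Over these 4 fits the difference lay between 1.72 and 2.07 for S1pr2 and between 1.14 and 2.40 for Icos. The call of S1pr2 was also lost with quantile normalization, with median centring, with the mean of the kept probe sets and with the replicate block. Of the list's 9 calls, 2 remained without PD1-intermediate replicate 1, 3 without PD1-intermediate replicate 2, 3 without PD1-low replicate 1 and 7 without PD1-low replicate 2. Without PD1-intermediate replicate 1 the adjusted p was 0.196 for Maf, 0.264 for Icos, 0.264 for S1pr2, 0.158 for Gpr183 and 0.128 for Il4.

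Cytokine genes were mostly under the filter: 16 of 34 listed were measured, 4 of these rose (Il21, Il4, Tgfb3 and Il2) and 0 fell. Tgfb3, a TGF-beta isoform, averaged 8.24 ± 0.33 in PD1-intermediate Th and 2.10 ± 0.02 in PD1-low Th (SD, n = 2 each), at least 9.43-fold higher (adjusted p = 1.08e-04). It was also the single gene that rose among 20 measured of TGF-beta and activin signalling, where 0 fell. Il2, the T cell growth factor, read 6.75 and 6.89 in PD1-intermediate Th, against 2.23 and 3.06 in PD1-low Th, at least 3.53-fold higher (adjusted p = 0.0221). Its call was lost when any 1 of the 4 arrays was left out (adjusted p up to 0.183).

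In the interleukin 1 and interleukin 18 receptor family, 2 of 12 measured genes rose and 0 fell, and the median difference was 1.13, and 0.30 within set 3. Il1r1, the receptor chain that signals, read 10.94 and 10.49 in PD1-intermediate Th, against 2.40 and 2.47 in PD1-low Th, at least 52.4-fold higher (adjusted p = 0.00493). Its SD was 0.32 in PD1-intermediate Th and 0.05 in PD1-low Th, against 1.77 in Venus-high and 1.62 in Venus-low Tfh. Without PD1-intermediate replicate 1 its adjusted p was 0.0552. Il1r2 and Il1r1 are next to each other on mouse chromosome 1 in RefSeq's GRCm38.p6 annotation, followed by Il1rl2, Il1rl1, Il18r1 and Il18rap among protein-coding genes. Of these, Il18rap, the accessory chain of the interleukin 18 receptor, read 9.31 and 9.70 in PD1-intermediate Th, against 3.64 and 6.17 in PD1-low Th, and differed by 4.60 ± 1.14 (adjusted p = 0.0691), and it passed with the set as a term (3.59 ± 0.76, adjusted p = 0.0248). Its groups did not overlap, which was so for 41.2% of all genes in this direction.

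Th17-associated genes moved in the same direction as these receptors, though several are shared with other lists. Of the 17 listed, 9 were measured, and 6 of these rose (Il1r1, Ccr6, Rora, Maf, Tmem176a and Tmem176b) and 0 fell, beside 3.07% of all genes that rose. The median difference was 3.08, and 2.36 within set 3. Ccr6, the receptor of the chemokine CCL20, read 12.37 and 12.30 in PD1-intermediate Th, against 4.73 and 9.22 in PD1-low Th, and rose by 5.36 ± 1.18 (adjusted p = 0.0411), and by 3.11 within set 3. Rora, a nuclear receptor that supports the Th17 fate, read 11.29 and 11.23, against 6.42 and 8.46 in PD1-low Th, and rose by 3.82 ± 0.65 (adjusted p = 0.0130), and by 2.80 within set 3. The call of Rora was lost with the mean of the kept probe sets of a gene. In both genes the PD1-low arrays stood further apart than the PD1-intermediate ones. Of the 6 calls, 0 remained without PD1-intermediate replicate 1, 1 without PD1-intermediate replicate 2, 2 without PD1-low replicate 1 and 5 without PD1-low replicate 2, and the adjusted p was 0.257 for Ccr6 and 0.118 for Rora in the first of these fits.

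Receptors and enzymes of inflammatory and tissue homing divided between the directions. Of 16 measured, Gcnt1, Ccr6 and Cxcr6 rose and Itgb3 fell. Gcnt1, which builds the glycans that selectins bind, read 12.93 and 12.70 in PD1-intermediate Th, against 3.58 and 7.96 in PD1-low Th (7.04 ± 1.27, adjusted p = 0.0168). Cxcr6, a chemokine receptor of tissue T cells, read 10.82 and 10.51, against 3.27 and 7.48 in PD1-low Th (5.29 ± 1.11, adjusted p = 0.0331). Itgb3, an integrin subunit, read 6.94 and 7.84, against 12.39 and 12.33 in PD1-low Th (-4.97 ± 0.68, adjusted p = 0.00382). The 2 PD1-low arrays differed by more than 4 log2 units in Gcnt1 and Cxcr6, and the list's median difference of 3.21 was 0.53 within set 3. There the difference was 4.85 for Gcnt1, 3.19 for Cxcr6 and -4.94 for Itgb3. Without PD1-intermediate replicate 1 the adjusted p was 0.139 for Gcnt1, 0.233 for Cxcr6 and 0.0514 for Itgb3.

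Of the 23 measured genes of naive and quiescent T cells, 0 rose and 3 fell in PD1-intermediate Th, beside 0.940% of all genes that fell. With the set as a term 9 fell, beside 4.71% of all genes. The median difference was -0.60, against 0.29 for all genes, and -1.02 within set 3, against 0.01. Igfbp4 was the largest of the falls. Treml2, a receptor of the TREM family, read 8.97 and 10.01 in PD1-intermediate Th, against 11.79 and 12.27 in PD1-low Th (-2.54 ± 0.41, adjusted p = 0.00990). Pik3ip1, an inhibitor of phosphoinositide 3-kinase, read 11.37 and 11.35, against 12.68 and 12.80 in PD1-low Th (-1.38 ± 0.25, adjusted p = 0.0180). Neither gene's groups overlapped, and without PD1-intermediate replicate 1 the adjusted p was 0.103 for Treml2 and 0.161 for Pik3ip1. Among 12 measured genes of T zone homing and egress, Gpr183 rose and 0 fell, a count that says little beside the 3.07% of all genes that rose.

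Mitosis was the list with the most rises of the 32 described or counted here, and also the one with the most genes measured. Th17-associated genes had a larger share of rises, 66.7% of 9 measured. Of the 51 mitosis genes measured, 25 rose and 0 fell, which is 49.0% beside the 3.07% of all genes that rose. With the set as a term, 37 rose and 1 fell. The list's median difference was 3.73, and 3.03 within set 3. Nuf2, a kinetochore subunit, read 10.29 and 9.10 in PD1-intermediate Th, against 3.18 and 3.83 in PD1-low Th, at least 26.0-fold higher (adjusted p = 0.00215). Hmmr, a protein of the spindle, read 10.51 and 9.38, against 2.62 and 5.44 in PD1-low Th, and rose by 5.92 ± 0.81 (adjusted p = 0.00409). Ube2c, the ubiquitin-conjugating enzyme of the anaphase-promoting complex, read 10.17 and 9.19, against 3.07 and 5.20 in PD1-low Th, and rose by 5.55 ± 1.14 (adjusted p = 0.0298). Cdk1, the main mitotic kinase, read 10.23 and 9.18, against 3.01 and 5.56 in PD1-low Th, and rose by 5.42 ± 0.81 (adjusted p = 0.00649).

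In all 4 of these genes PD1-intermediate replicate 1 was about 1 log2 unit above replicate 2, and PD1-low replicate 2 was above replicate 1. Within set 3 the difference was 5.87 for Nuf2, 4.51 for Hmmr, 4.48 for Ube2c and 4.15 for Cdk1. Of the 25 calls, 13 remained without PD1-intermediate replicate 1, 17 without PD1-intermediate replicate 2, 16 without PD1-low replicate 1 and 22 without PD1-low replicate 2. Nuf2 passed in each of these 4 fits. In the first, the adjusted p was 0.0528 for Hmmr, 0.0812 for Cdk1 and 0.251 for Ube2c.

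Many mitotic genes are controlled through a promoter element called CHR, together with CCAAT boxes. The element was searched as TTTGAA and, in its other form, as TTCGAA, on both strands, as was CCAAT. Matches of different motifs can share end bases. The promoters of the 4 mitotic genes above are shown for these motifs, from 120 bases before to 30 bases after the start of transcription, 5′ to 3′ on the gene's strand, with each CHR or CCAAT match, on either strand, in capitals. They are RefSeq sequences of mouse build GRCm38.p6, at chr1:169531435-169531584 (Nuf2, minus strand), chr11:40733408-40733557 (Hmmr, minus strand), chr2:164769809-164769958 (Ube2c, plus strand) and chr10:69352883-69353032 (Cdk1, minus strand).
Nuf2: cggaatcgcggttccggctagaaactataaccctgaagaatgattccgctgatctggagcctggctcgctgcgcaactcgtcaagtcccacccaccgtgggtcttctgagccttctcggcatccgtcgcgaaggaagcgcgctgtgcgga
Hmmr: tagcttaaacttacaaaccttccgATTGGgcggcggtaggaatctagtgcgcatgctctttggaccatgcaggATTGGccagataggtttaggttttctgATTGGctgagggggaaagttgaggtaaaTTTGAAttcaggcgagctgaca
Ube2c: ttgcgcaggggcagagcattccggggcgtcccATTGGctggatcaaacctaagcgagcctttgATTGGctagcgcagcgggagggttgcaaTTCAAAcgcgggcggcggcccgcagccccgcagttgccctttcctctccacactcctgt
Cdk1: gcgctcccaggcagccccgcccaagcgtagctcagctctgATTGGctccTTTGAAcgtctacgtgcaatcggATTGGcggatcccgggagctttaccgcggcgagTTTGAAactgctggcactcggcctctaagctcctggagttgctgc
Hmmr, Ube2c and Cdk1 held both kinds of motif in this stretch, and Nuf2 held neither there or in the whole window of 250 bases before to 50 bases after the start. In that window, 33 of 45 promoters of the mitosis list held a CHR motif (73.3%), against 19.4% of 27025 mouse promoters, and 29 of 45 held it together with a CCAAT (64.4%), against 7.70%. Over the 8095 promoters of genes tested the shares were 13.8% and 5.89%. Apart from the filter that set the genes tested, the arrays played no part in these counts, which describe the letters and not binding.

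Of the 44 DNA replication genes measured, 5 rose (Gins2, Cdc6, E2f1, Rrm2 and Pole) and 0 fell, and 19 rose and 0 fell with the set as a term. The median difference was 1.12, and 0.83 within set 3, below that of the mitosis list on both counts. Gins2, a subunit of the replicative helicase, read 9.65 and 8.77 in PD1-intermediate Th, against 3.16 and 4.47 in PD1-low Th, at least 18.5-fold higher (adjusted p = 0.0227). Cdc6, which loads the helicase at origins, read 9.78 and 8.73, against 3.03 and 5.59 in PD1-low Th, and rose by 4.95 ± 0.97 (adjusted p = 0.0240). Within set 3 the difference of Cdc6 was 3.67. Rrm2, a subunit of ribonucleotide reductase, read 13.58 and 13.23, against 10.58 and 11.32 in PD1-low Th, and rose by 2.45 ± 0.40 (adjusted p = 0.0104). For E2f1, a transcription factor of S phase genes, the bound was 3.19-fold higher (adjusted p = 0.0208). Its call was lost with signals under the floor set to log2 5 (adjusted p = 0.141), with quantile normalization (0.0768) and with median centring (0.0853). Pole, a DNA polymerase subunit, rose by 2.10 (adjusted p = 0.0346).

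The 5 replication calls were all lost without PD1-intermediate replicate 1, without PD1-intermediate replicate 2 or without PD1-low replicate 1, and 4 of the 5 remained without PD1-low replicate 2. In the first of these fits the adjusted p was 0.203 for Gins2, 0.222 for Cdc6, 0.122 for Rrm2 and 0.196 for E2f1. Of 38 replication promoters, 7 held a CHR motif (18.4%) and 24 a CCAAT (63.2%). The shares were 19.4% and 37.9% over all mouse promoters, and 13.8% and 39.5% over promoters of genes tested. None of 12 measured cell cycle inhibitor genes passed in limma, where 3.07% of all genes rose and 0.940% fell. At an unadjusted p below 0.05 there were 1 higher and 0 lower. Cdkn2c differed by 2.76 ± 1.17 (adjusted p = 0.375) and Cdkn1a by 1.94 ± 0.88 (adjusted p = 0.426).

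**Figure D4:**
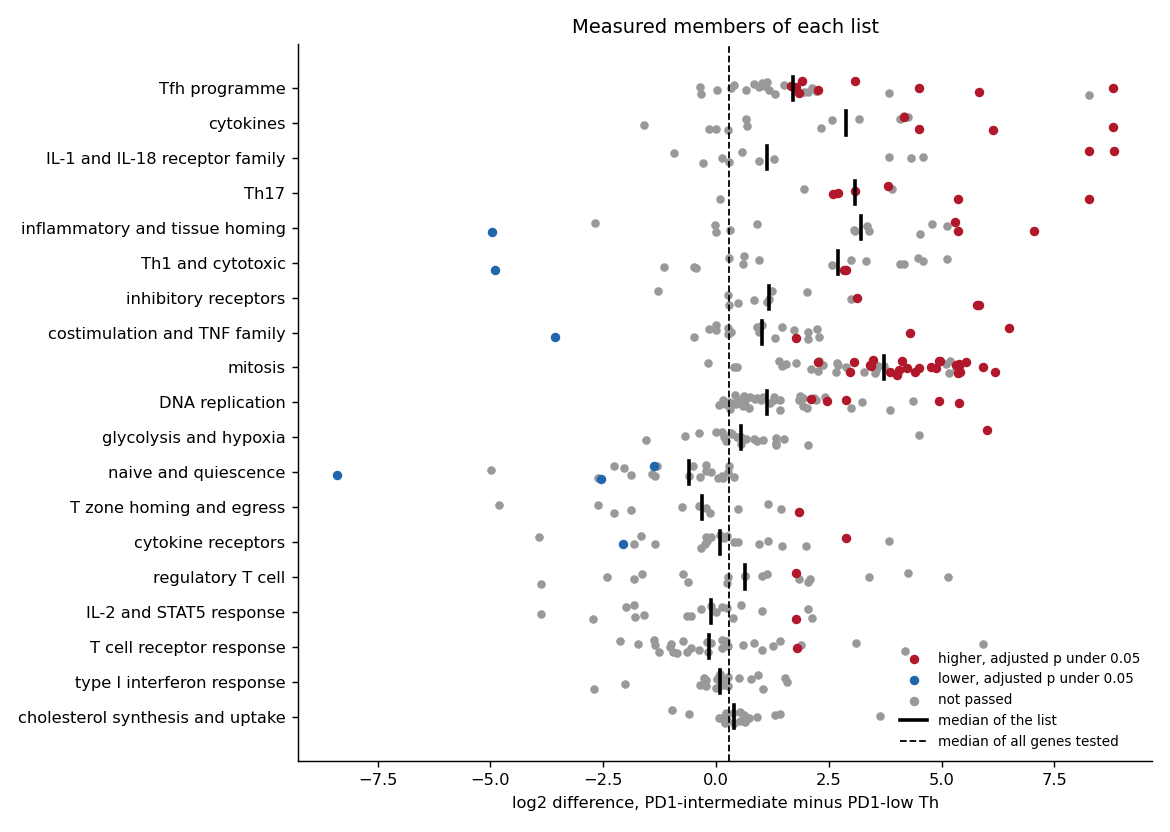
Each point is a measured member of a gene list, placed by its log2 difference, PD1-intermediate minus PD1-low, with rises that passed in red, falls that passed in blue and other members in grey. The short bars are list medians and the dashed line is the median of all genes, 0.29. Of the lists drawn, mitosis has the most measured members, 51, and the most rises, 25, and naive and quiescence has the most falls, 3.

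The counts of some lists moved with the set as a term, where 8.09% of all genes rose and 4.71% fell. The Tfh programme then had 14 rises and 1 fall, cytokines 6 and 1, and the interleukin 1 and interleukin 18 receptor family 3 and 0. Th17-associated genes had 7 rises and 0 falls, inflammatory and tissue homing 5 and 2, Th1 and cytotoxic genes 4 and 1, and costimulators and the TNF family 5 and 1. With signals under the floor set to log2 5, the median difference was 3.11 for mitosis, 1.12 for DNA replication, 1.57 for the Tfh programme and -0.60 for naive and quiescent T cells, against 0.27 for all genes.

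Among inhibitory receptors, 3 of 13 measured genes rose (Pdcd1, Lag3 and Cd160) and 0 fell. Cd160, a ligand of the receptor HVEM, read 10.03 and 9.15 in PD1-intermediate Th, against 5.78 and 7.15 in PD1-low Th (3.12 ± 0.58, adjusted p = 0.0180). Among costimulators and the TNF family, 3 of 21 rose (Tnfsf14, Tnfsf11 and Icos) and Cd86 fell. Tnfsf14, the ligand LIGHT, which also binds HVEM, read 12.34 and 11.78, against 4.71 and 6.44 in PD1-low Th (6.49 ± 0.65, adjusted p = 8.10e-04). Tnfsf11, the ligand RANKL, read 12.53 and 12.18, against 7.01 and 9.07 in PD1-low Th (4.31 ± 0.98, adjusted p = 0.0469). Within set 3 the difference was 5.63 for Tnfsf14 and 3.28 for Tnfsf11. Cd86, a ligand of CD28 usually found on antigen-presenting cells, read 3.99 and 4.01, against 6.60 and 8.52 in PD1-low Th (at least 5.89-fold lower, adjusted p = 0.0296). The call of Tnfsf14 held without any 1 of the 4 arrays, while without PD1-intermediate replicate 1 the adjusted p was 0.188 for Cd160, 0.315 for Tnfsf11 and 0.202 for Cd86.

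Genes of Th1 and cytotoxic cells differed both ways. Of 18 measured, Il12rb1 and Gzma rose and Ctsw fell. Il12rb1, a chain of the interleukin 12 and 23 receptors, read 9.34 and 9.25 in PD1-intermediate Th, against 5.59 and 7.26 in PD1-low Th (2.87 ± 0.59, adjusted p = 0.0306). Gzma, a granzyme, read 8.24 and 7.32, against 4.69 and 5.19 in PD1-low Th (2.84 ± 0.57, adjusted p = 0.0275). The call of Gzma was lost with quantile normalization and with median centring. Ctsw, a cathepsin of cytotoxic cells, read 7.44 and 8.97, against 12.94 and 13.28 in PD1-low Th (-4.91 ± 1.11, adjusted p = 0.0475). All 3 calls were lost without PD1-intermediate replicate 1 (adjusted p of 0.217 for Il12rb1, 0.267 for Gzma and 0.386 for Ctsw), and the list's median difference of 2.71 was 0.63 within set 3 and 0.82 with signals under the floor set to log2 5.

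Th2 genes gave 2 rises, Il4, whose call was lost at the floor, and Nfil3, and 1 fall, Il4ra, of 6 measured. Nfil3, a transcription factor that interleukin 4 and other signals induce, read 7.88 and 6.84 in PD1-intermediate Th, against 3.65 and 4.68 in PD1-low Th (at least 5.14-fold higher, adjusted p = 0.0148). Il4ra, the receptor chain for interleukin 4 and 13, read 10.07 and 10.30, against 12.36 and 12.14 in PD1-low Th (-2.07 ± 0.37, adjusted p = 0.0161). Neither gene's groups overlapped. Of 21 measured cytokine receptors, these 2 calls, Il12rb1 higher and Il4ra lower, were the ones that passed. Without PD1-intermediate replicate 1 the adjusted p was 0.158 for Nfil3 and 0.161 for Il4ra.

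Several lists had few or no calls. Over all genes 3.07% rose and 0.940% fell, so counts this low say little about lists of this size. The same holds for the cholesterol, interferon and Bcl2 lists below. Icos was the 1 gene that rose among 19 measured of regulatory T cells and among 19 of the interleukin 2 and STAT5 response, with 0 falls in either. With the quantile set as a term, 3 regulatory T cell genes rose and 2 fell, and 2 genes of the interleukin 2 and STAT5 response rose and 4 fell. Nfatc1, a transcription factor of receptor signalling, was the 1 gene that rose among 30 measured of the T cell receptor response (1.79 ± 0.34, adjusted p = 0.0204), with 0 falls, while 1 rose and 4 fell with the set as a term. Nfatc1 did not pass when the highest probe set of a gene was taken on each array, nor without PD1-intermediate replicate 1 (adjusted p = 0.200).

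Glycolysis and hypoxia genes gave 1 rise and 0 falls of 23 measured, 7 rises and 1 fall with the set as a term, and 4 rises and 0 falls with quantile normalization. Egln3, an oxygen-sensing prolyl hydroxylase, read 11.87 and 11.35 in PD1-intermediate Th, against 5.29 and 5.91 in PD1-low Th, and rose by 6.02 ± 0.32 (adjusted p = 1.98e-05). The call held without any 1 of the 4 arrays. Of 9 measured regulators of G protein signalling, Rgs3 rose (1.72 ± 0.31, adjusted p = 0.0160) and 0 fell. The call of Rgs3 was lost without PD1-intermediate replicate 1 and with the mean of the kept probe sets of a gene.

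In limma 0 of 20 measured genes of cholesterol synthesis and uptake passed, and at an unadjusted p below 0.05 there were 4 higher and 1 lower. Stard4, a sterol carrier, differed by 1.41 ± 0.50 (adjusted p = 0.240), and Dhcr7, the enzyme of the last step of synthesis, by 0.64 ± 0.25 (adjusted p = 0.303). Of 21 type I interferon response genes 0 passed, and at an unadjusted p below 0.05 there were 2 higher and 2 lower, among them Oas1a (1.53 ± 0.39, adjusted p = 0.0769) and Oasl1 (-2.01 ± 0.62, adjusted p = 0.149). Of 14 genes of the Bcl2 family and cell death 0 passed, and at an unadjusted p below 0.05 there were 1 higher and 1 lower. Bik, which promotes death, differed by 1.99 ± 0.58 (adjusted p = 0.124) and Bcl2, which opposes it, by -1.80 ± 0.79 (adjusted p = 0.404). Over all genes, 9.34% were higher and 2.98% lower at this unadjusted level. With the set as a term, 1 cholesterol gene rose and 0 fell, 2 interferon response genes rose, among them Oas1a (1.20 ± 0.23, adjusted p = 0.0163), and 2 fell, and Bik rose (1.87 ± 0.29, adjusted p = 0.00773) and Bcl2 fell (-2.60 ± 0.34, adjusted p = 0.00385).

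Many markers of other cells were low, while others were above the floor and differed in both directions. Levels and sums of such markers took the highest probe set of a gene on each array, displaced probe sets included. Of 13 B cell genes on the array, 8 were under log2 5 on all 4 arrays, among them Cd79a and Ms4a1. Cd79b and Cd72 were above it on all 4 arrays, and Pax5 and Ebf1 on PD1-low replicate 1 alone. Cd22, an inhibitory lectin of B cells, read 10.13 and 9.32 in PD1-intermediate Th, against 3.77 and 4.19 in PD1-low Th, at least 26.4-fold higher (adjusted p = 8.10e-04). The summed signal of the B cell genes was 11.13 to 11.24 on the log2 scale in PD1-intermediate Th and 11.64 to 11.82 in PD1-low Th, the opposite order to Cd22. Cd72, the highest of them, read 10.18 and 10.50 in PD1-intermediate Th and 11.49 and 11.56 in PD1-low Th. The sums thus follow few genes and do not measure a share of B cells.

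Of 11 germinal centre B cell and plasma cell genes, 5 were under log2 5 on all 4 arrays, and the summed signal was 14.10 to 14.23 in PD1-intermediate Th and 12.55 to 13.76 in PD1-low Th. Fas and Irf4 had the highest signals of the list, between 11.23 and 13.20 on the 4 arrays. S1pr2 and Sdc1, the plasma cell proteoglycan CD138, rose. Sdc1 read 7.46 and 6.68 in PD1-intermediate Th, against 2.53 and 3.39 in PD1-low Th, at least 4.19-fold higher (adjusted p = 0.00171). The plasma cell genes Jchain, Tnfrsf17 and Mzb1 read at most 3.04 in PD1-intermediate Th and at most 4.07 in PD1-low Th.

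Of 13 markers of CD8, NK and gamma delta T cells, 8 were under log2 5 on all 4 arrays, among them Cd8a and Ncr1, and the summed signal was 10.30 to 10.51 in PD1-intermediate Th and 10.95 to 11.75 in PD1-low Th. Klrd1 read 7.56 and 8.94 in PD1-intermediate Th, against 10.80 and 11.50 in PD1-low Th. Cd8b1 read 4.64 and 4.75, against 6.35 and 6.62 in PD1-low Th. Eomes read 5.85 on both PD1-intermediate arrays, against 4.52 and 8.09 in PD1-low Th. Klrc1 and Cd160 were higher in PD1-intermediate Th. Of 19 myeloid and dendritic cell markers, 15 were under log2 5 on all 4 arrays, among them Lyz2, Itgam and Csf1r, and the summed signal was 10.70 to 11.12 in PD1-intermediate Th and 9.40 to 10.13 in PD1-low Th. Cd74, the class II invariant chain, read 10.87 and 10.38 in PD1-intermediate Th, against 8.55 and 9.70 in PD1-low Th (adjusted p = 0.808), while the class II genes H2-Ab1 and H2-Aa read at most 2.52 in PD1-intermediate Th and at most 2.82 in PD1-low Th. Of 8 stromal markers, 7 were under log2 5 on all 4 arrays. The part of other cells in the rises and falls was not tested.

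The Tfh groups of the series, split by the S1pr2 reporter and sharing no array with the Th groups, gave a second difference to set beside this one. The difference of differences, (PD1-intermediate minus PD1-low) minus (Venus-high minus Venus-low), passed in 386 of 9893 genes (3.90%), 297 positive (3.00%) and 89 negative (0.900%). The count was 152 without PD1-intermediate replicate 1, 193 without PD1-intermediate replicate 2, 191 without PD1-low replicate 1 and 377 without PD1-low replicate 2. A positive value here can come from a rise in the Th comparison, a fall in the Tfh comparison or both, so the 2 differences are given with each gene. The fit takes signals under the floor as deposited, and with these set to log2 5 it passed in 342 genes, 261 positive and 81 negative. Values with that setting are called floored.

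Nebl had the largest value, 13.17 ± 1.16 (adjusted p = 6.32e-04) and 10.74 floored, with a rise of at least 125-fold between the Th groups and a difference of -3.77 between the Tfh groups (adjusted p = 0.0506). Cd163l1 followed on the deposited signals with 12.39 ± 0.99 (adjusted p = 4.34e-04). Its floored value was 8.12, below the floored 8.99 of Ccr6, and all 3 Venus-high arrays were under the floor, with a floored difference of -2.69 between the Tfh groups. Among the 5 groups, the mean of both genes was highest in PD1-intermediate Th, with 11.96 for Nebl and 10.43 for Cd163l1, against 10.05 and 7.69 in Venus-low Tfh and 6.28 and 3.12 in Venus-high Tfh.

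Nkg7, a gene of cytotoxic granules, and Il18rap did not pass between the Th groups on the deposited signals, though Il18rap passed with the set as a term. For Nkg7 the difference of differences was 10.75 ± 1.96 (adjusted p = 0.0186) and 6.33 floored, with a floored difference of -4.45 between the Tfh groups. For Il18rap it was 9.80 ± 1.48 (adjusted p = 0.00788) and 8.13 floored, with a floored difference of -4.21 between the Tfh groups. Nkg7 read 8.02 and 8.11 in PD1-intermediate Th, against 2.13 and 7.35 in PD1-low Th, so that PD1-low replicate 2 lay close to the PD1-intermediate arrays and replicate 1 under the floor. Adam12, a metalloprotease, read 9.91 and 10.13 in PD1-intermediate Th, against 2.20 and 2.64 in PD1-low Th (at least 32.4-fold higher, adjusted p = 0.0233). Its difference of differences was 10.20 ± 1.91 (adjusted p = 0.0205) and 6.88 floored. Its SD was 0.16 in PD1-intermediate Th and 0.31 in PD1-low Th, against 2.40 in Venus-high and 1.87 in Venus-low Tfh. The call of its Th difference was lost when any 1 of the 4 arrays was left out, with adjusted p between 0.0799 and 0.163.

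Mitotic and replication genes were positive in this test: 37 of 51 and 18 of 44 measured genes passed, and 0 were negative. Their median difference between the Tfh groups was -2.08 and -1.26. For Gins2 the difference of differences was 9.16 ± 1.35 (adjusted p = 0.00689) and 7.74 floored, with floored differences of 4.21 between the Th groups and -3.53 between the Tfh groups. For Cdk1 it was 7.61 ± 1.04 (adjusted p = 0.00504) and 6.62 floored, with floored differences of 4.43 and -2.19. The mean level of Cdk1 was 9.71 in PD1-intermediate Th, 9.44 in Venus-high Tfh and 11.63 in Venus-low Tfh, against 4.29 in PD1-low Th and 3.03 in naive cells.

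Negative values included genes with a mean under log2 5 in both Tfh groups, which fell between the Th groups. On the deposited signals they were -9.38 ± 0.35 for Pdlim4 (adjusted p = 6.30e-06), -8.43 ± 1.39 for Igfbp4 (adjusted p = 0.0123), -7.86 ± 1.06 for Myo6 (adjusted p = 0.00471), -7.66 ± 0.25 for Ampd1 (adjusted p = 4.13e-06) and -7.50 ± 0.31 for Amigo2 (adjusted p = 7.86e-06). The floored values were -6.58 for Pdlim4, -7.86 for Igfbp4, -5.11 for Myo6, -4.71 for Ampd1 and -4.81 for Amigo2, all 5 of which passed, and the floored Tfh differences lay between -0.08 and 0.02. Apoe, an apolipoprotein gene, read at most 2.15 on all 4 Th arrays. Its value of -7.09 ± 1.38 (adjusted p = 0.0250) was -4.16 floored and did not pass then (adjusted p = 0.195), with a floored difference of 4.16 between the Tfh groups. Itgb3 fell in both comparisons, with a difference of -4.97 between the Th groups and a floored difference of -3.61 between the Tfh groups (adjusted p = 0.00389 on the deposited signals). Its difference of differences was 0.27 ± 0.87 (adjusted p = 0.960), and -1.36 floored (adjusted p = 0.261). S1pr2 was higher in both, by 1.90 between the Th groups and by 2.64 between the Tfh groups, where its reporter was the gate.

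**Figure D5:**
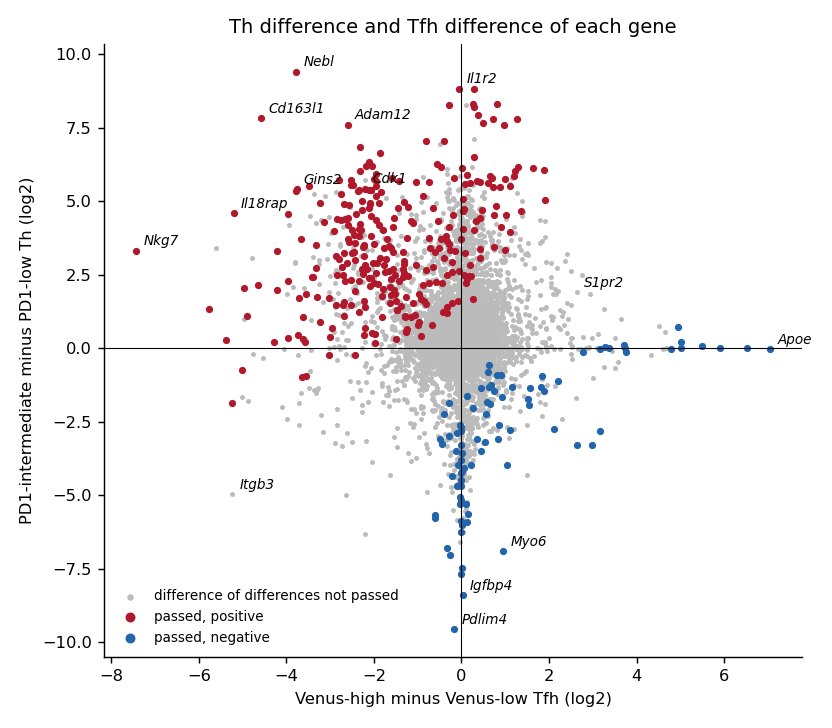
Each point is 1 of the 9893 genes tested, with Venus-high minus Venus-low Tfh on the x axis and PD1-intermediate minus PD1-low Th on the y axis, both in log2 units of the deposited signals. Genes whose difference of differences passed are red where positive (297) and blue where negative (89), with Nebl and Cd163l1 at the top left, Pdlim4 and Igfbp4 at the bottom near 0 on the x axis, and Apoe at the right near 0 on the y axis.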

How the data were processed

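Gene expression in pools of sorted mouse CD4+ T cells was measured on 12 Affymetrix arrays (45101 probe sets) from 20 ng of amplified RNA. The authors deposited a log2 value for each probe set, made with GCRMA (version not stated) per the submitters' processing notes. Which arrays were normalized together is not given in the sources used here. The values span 1.72 to 16.2. Scanner files were not analysed here, so the number of arrays limits the precision.

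The probe annotation gave 34958 probe sets 1 gene symbol, 932 several and 9211 none. A probe set was kept at log2 5 or more on at least 2 arrays, and the one with the highest mean over the 12 arrays stood for its gene (9893 genes). All 12 arrays in 5 groups entered 1 limma 3.58.1 fit (R 4.3.3; lmFit, eBayes, 2-sided, Benjamini-Hochberg over all genes, threshold 0.05). The fits were tested on simulated data. Quantile sets are clusters of the arrays' quantiles, and a probe set was called displaced where a set lay more than 3 log2 units from both others. Figures were drawn in Python 3.11.15 (matplotlib 3.10.9). Promoters were matched to genes by symbol.

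The named genes are the 12 largest rises and 12 largest falls without overlap, up to 4 called members of each list (2 with the smallest p where none passed), the gate and marker genes, and the 6 largest differences of differences each way, all from probe sets not displaced, plus markers of other cells for their levels. Other members in counts of few calls were named after their values were seen. The members and the gene lists were chosen with earlier results of these data known. Alternatives changed the filter, floor, normalization, probe set, variance model, arrays, set terms, pool size, replicate block and each array in turn.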

Additional observations from a re-analysis of the deposited data

Results flagged for a closer look

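The difference of differences, (PD1-intermediate minus PD1-low Th) minus (Venus-high minus Venus-low Tfh), passed the test in limma for 48 of the named genes. Signals under log2 5 entered as deposited, so values against them are not measured sizes. With such signals set to log2 5, the 48 kept their sign and 46 passed, Il1r1 and Apoe being the exceptions, and the values lay between 1.91 and 10.74 where positive and between -7.86 and -2.99 where negative. It was positive for genes of the largest rises: 13.17 for Nebl, 12.39 for Cd163l1, 8.86 for Il1r2, 8.57 for Il1r1, 8.51 for Il21, 8.03 for Trpm6, 7.91 for Smtn, 7.56 for H2-Q2, 7.48 for Cebpa, 7.18 for B4galnt4, 7.06 for Cxcr5 and 6.51 for Asb2. In each of these the Tfh arrays were above the floor in at least 1 Tfh group, and Cxcr5, a gate gene, was above 13 in both. Mitosis and replication genes gave 8.37 for Nuf2, 8.08 for Ube2c, 7.86 for Hmmr, 7.61 for Cdk1, 9.16 for Gins2, 8.19 for Cdc6, 4.82 for E2f1 and 3.67 for Rrm2.

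Receptors, ligands and cytokines gave 9.13 for Ccr6, 9.80 for Il18rap, 7.86 for Gcnt1, 6.21 for Tnfsf14, 6.11 for Tgfb3, 6.05 for Il2, 5.09 for Pdcd1, 4.75 for Cd22, 4.64 for Lag3, 4.40 for Sdc1 and 2.83 for Gpr183. Other genes with a positive value were Nkg7 with 10.75, Adam12 with 10.20, Egln3 with 4.80, Rora with 4.18 and Gzma with 4.15.

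Negative values were -9.38 for Pdlim4, -8.43 for Igfbp4, -7.86 for Myo6, -7.66 for Ampd1, -7.50 for Amigo2, -7.09 for Apoe, -6.77 for Gpr34, -6.47 for Gata1, -6.24 for Art4, -6.03 for Zdhhc14, -6.02 for Tmem108 and -5.87 for Drc1. For all of these except Apoe, the value came from a fall between the Th groups.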

How the results depend on the processing

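The 397 calls between the Th groups became 638 with quantile normalization, 692 with the replicate block, 1266 with the quantile set as a fixed term, 1419 with it as a random block, 95 on the 4 arrays alone, 123 within set 3 (5 arrays) and 152 of 3607 genes with 1 probe set. Settings chosen after seeing the data were the last of these, and the set term without displaced probe sets (1320) or with the highest probe set of a gene on each array (1339). The 386 calls of the difference of differences became 656, 674, 1609, 1744, 175 (set 3), 160 (1 probe set), 1660 and 1706 under the same settings, in that order except that the 4 arrays alone give no value, and 950 with array weights. Leaving out each of the 12 arrays gave 137 to 385 and 152 to 400. The cause of these moves was not tested, except that fewer arrays or genes enter the smaller fits. No call of a named gene changed sign under the 13 alternatives run for each: of 819 values for the 63 called genes, 623 kept their side of the threshold and 196 lost it. Of 208 values for 16 named genes that did not pass, 16, in 6 genes (Il18rap, Bcl2, Cd44, Bik, Oas1a and Nkg7), passed, and 4 changed sign without passing: leaving out 1 array gave -0.68 to 0.64 for Pecam1 and -0.0790 to 0.00769 for Apoe, which also gave 0.00769 within set 3. Of 63 named calls, 30 held without any 1 of the 4 arrays. Whether the replicate numbers pair the Th arrays cannot be told. Deviations of arrays of the same number correlated by -0.005 across genes. But with 2 arrays a group the deviations mirror each other, and those of PD1-low Th include the step between quantile sets. With 2 arrays a group and SEs of 0.49 at the median (0.20 with the set term), small differences were not detectable, and the limit lay well above the SE. Of the 397 calls, 396 were at least 1 log2 unit, and Cd44 did not pass with a difference of 1.63.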
